A study of Mus musculus with 8 samples.

Results

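Eph receptors and ephrins were measured in lens fiber cells (FC) of untreated control (Ct) mice and of mice that breathed cigarette smoke (CS), and 10 genes are described: Epha2, Epha4, Epha7, Ephb2, Ephb4, Efna1, Efna4, Efna5, Efnb1 and Efnb2. They are the rows of the deposited expression table that carry exactly these symbols, 10 of 35275 rows, and comprise 5 of the 14 Eph receptors and 5 of the 8 ephrins listed there. A mean of at least 1 FPKM (fragments per kilobase of gene scaled to the mapped reads of the library) in either group was reached by 6 of the 10, which were tested among 9794 genes. The other 4 members are given with their values and with a fit of 21019 genes that set no minimum.

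Eph receptors are receptor tyrosine kinases of the cell surface, and ephrins are the ligands that neighbouring cells present to them. A-class ephrins are held in the membrane by a lipid anchor and bind mainly EphA receptors, while B-class ephrins span the membrane and bind mainly EphB receptors, with EphA4 binding both classes. Contact can signal into both cells, and the outcome is often a change of the actin skeleton through small GTPases and Src family kinases. In the lens, Epha2 and Efna5 are the members studied most: mice without Epha2 have disordered fiber packing, mice without Efna5 can develop cataract, and variants of EPHA2 cause human cataract.

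All mice were of strain C57BL/6 in the labels and C57BL/6J in the study's methods. The CS-exposed mice were kept in a whole-body smoke chamber from around birth for 5 hours/day and 5 days/week over 3.5 months, and the Ct mice were untreated and of the same age. Each group had 4 libraries, and each library held the FC of the right eyes of 4 mice, peeled from the epithelium under a microscope. Each group comprised 2 male and 2 female pools, and which library belongs to which sex is not given in the labels. The design asks whether the RNA of lens FC differs after exposure to smoke. The Ct mice were housed in the animal facility, and the paper describes no chamber without smoke. Smoke and housing in the chamber therefore cannot be told apart. In such bulk RNA, fewer cells of a type and less RNA per cell cannot be told apart.

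The 8 libraries held an estimated 18100000 to 23300000 fragments, and whole reads were found behind the FPKM of 99.8% of the tested genes. The label of the tissue was borne out by its markers: all 8 lens fiber markers exceeded a mean of 1 FPKM, and their summed level lay between 58163 and 62898 FPKM in every library. Of 7 lens epithelium markers, 5 reached 1 FPKM, with a summed level of 54.2 to 108.8 FPKM in Ct libraries and 44.5 to 71.3 in CS libraries. None of 6 vascular endothelium markers reached 1 FPKM, and their sum was 0.198 to 0.490 FPKM in Ct and 0.211 to 0.425 in CS libraries. Of 5 retinal pigment epithelium markers, 4 reached 1 FPKM, in the CS group alone, and Best1 was at 0 in every library. Their sum was 0.922 to 1.84 FPKM in Ct and 2.68 to 25.4 in CS libraries, and the ranges did not overlap. A sum over 5 rod photoreceptor markers was 14.5, 9.40, 16.1 and 3.75 FPKM in Ct and 25.04, 34.8, 56.3 and 15.5 FPKM in CS libraries. In 3 of 4 CS libraries it lay above every Ct library. Taken singly, all 5 passed an unadjusted limma p of 0.05, higher in CS, against 2.75% of all tested genes. For 4 of these 5, all CS libraries lay above all Ct libraries, where 3.08% of all tested genes did not overlap in either direction. Pigment cell markers summed to 0.301 to 2.43 FPKM in Ct and 0.346 to 5.92 in CS libraries, glia markers to 4.84 to 8.51 and 5.88 to 8.05, and blood markers to 0.166 to 1.59 and 0.416 to 20.6. Whether retinal RNA has a part in the values of low members was not tested.

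The upstream regions of Epha2 and Efna5 are printed because Epha2 was the highest member and Efna5 had the largest difference among the members tested. Each holds the 250 bases before the annotated start on GRCm38.p6 (RefSeq), 5' to 3' on the strand of the gene. Epha2 is chr4:141300971-141301220 on the plus strand and Efna5 is chr17:62881318-62881567 on the minus strand. Capitals mark GCGTG and its other strand CACGC, the core of the element bound by the aryl hydrocarbon receptor, a sensor of compounds that include smoke constituents.
Epha2: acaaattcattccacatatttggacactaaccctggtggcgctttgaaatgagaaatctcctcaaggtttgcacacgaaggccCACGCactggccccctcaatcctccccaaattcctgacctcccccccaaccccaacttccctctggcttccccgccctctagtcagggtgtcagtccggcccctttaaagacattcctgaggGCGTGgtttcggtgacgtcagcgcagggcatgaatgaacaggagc
Efna5: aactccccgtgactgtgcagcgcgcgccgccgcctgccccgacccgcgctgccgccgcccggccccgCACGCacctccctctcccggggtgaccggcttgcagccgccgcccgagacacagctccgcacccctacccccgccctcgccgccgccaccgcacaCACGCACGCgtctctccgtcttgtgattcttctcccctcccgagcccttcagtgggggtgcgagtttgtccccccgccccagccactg
The Epha2 region held 2 of these cores and the Efna5 region 3, of which 2 share a base. Of all 10 members, each of which matched RefSeq, 4 (Epha2, Ephb2, Efna5 and Efnb1) held at least 1 core, and so did 28.2% of 27025 promoters of the same length, with 1 promoter per gene. The palindrome TGACGTCA, the cyclic AMP response element, was in the Epha2 region alone of the 10, against 1.62% of all promoters. The G and C content was 55.6% for Epha2 and 74.8% for Efna5, against a median of 52% over all promoters. A match is a description of letters in the window and no binding was measured.

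Among the 6 members tested, none passed an adjusted p of 0.05 in limma, against 0.0102% of all 9794 genes (1 gene). None passed an unadjusted p of 0.05 either, against 4.83% of all genes (2.75% higher and 2.08% lower in CS). In no tested member did the 4 CS libraries all lie above or all lie below the 4 Ct libraries, whereas 3.08% of all tested genes did not overlap. Of the 6 differences, 2 were above 0 and 4 below, with a median log2 fold change of -0.13 against 0.0043 over all tested genes. The median size of the differences, without sign, was 0.14 for the members and 0.084 for all tested genes.

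**Figure D1:**
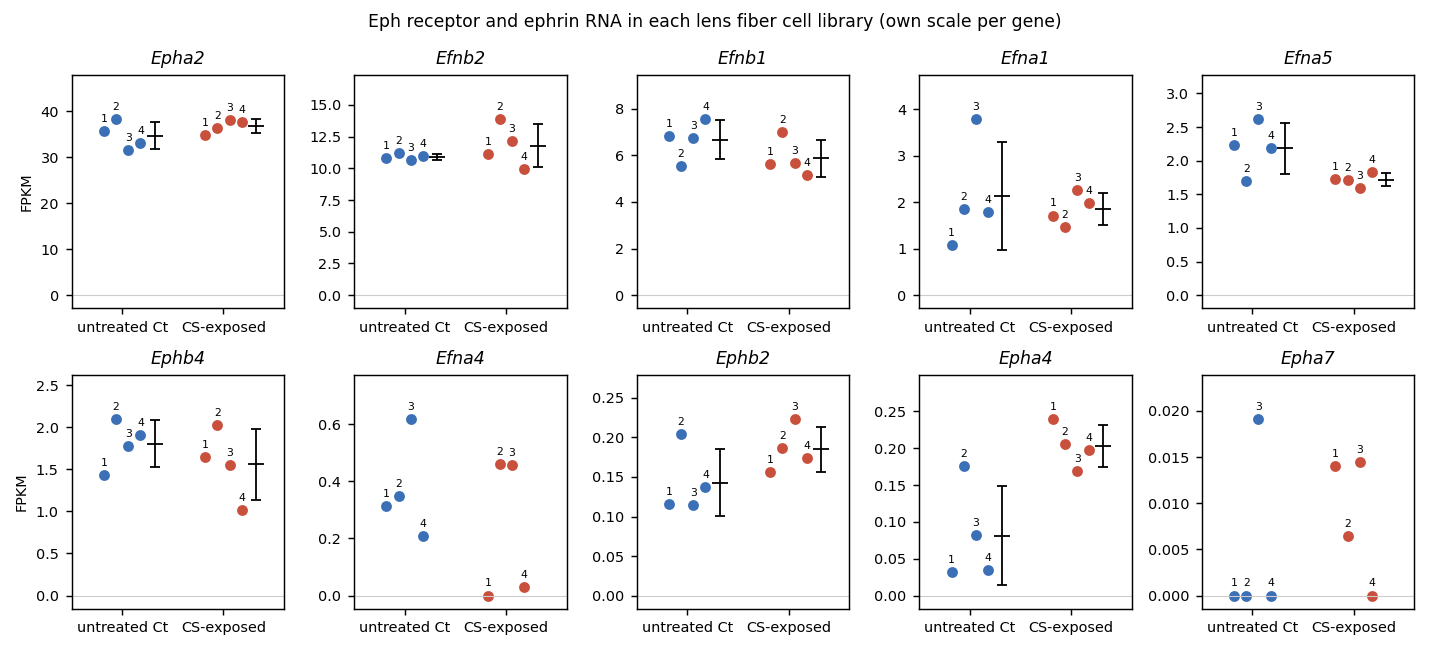
FPKM of the 10 members in each of the 8 libraries, numbered by replicate, on a linear axis with its own scale for each gene. Untreated Ct libraries are blue and CS-exposed ones red, and black bars give the mean and SD, left out for Efna4 and Epha7, which had libraries at 0. Epha2 lies highest, at 31.5 to 38.3 FPKM, and the groups overlap for every member.

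Epha2 (GRCm38, chr4:141301240-141329384, plus strand), the receptor whose loss disturbs fiber packing, was the highest member. Its level was 35.7, 38.3, 31.5 and 33.1 FPKM in the Ct libraries and 34.7, 36.4, 38.1 and 37.6 FPKM in the CS libraries. The highest and the lowest value both came from Ct libraries, and the groups overlapped. The means were 36.7 ± 1.5 FPKM in CS and 34.7 ± 3.0 FPKM in Ct libraries (SD, n = 4 each). The log2 fold change was 0.09 with a 95% interval of -0.06 to 0.23 (limma p = 0.234, adjusted p = 0.956, exact permutation p = 0.314). At least 2347 reads stood behind each value. Its level exceeded that of 90.9% of the tested genes.

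Ephb4 (chr5:137350109-137378669, plus strand), a receptor for Efnb2 best known from veins, was the other member receptor above 1 FPKM. Its level was 1.44, 2.10, 1.78 and 1.91 FPKM in Ct and 1.65, 2.03, 1.55 and 1.01 FPKM in CS libraries. A single CS library was below all Ct libraries, and the log2 fold change was -0.23 with an interval of -0.69 to 0.23 (limma p = 0.303, exact permutation p = 0.371). Without the fourth CS library it was -0.048. Its annotation shares 33 exonic bases with Zan on the opposite strand.

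The remaining member receptors were at or below 0.240 FPKM in every library. Ephb2 (chr4:136647539-136835988, minus strand), a receptor for B-class ephrins, had 0.115, 0.204, 0.114 and 0.137 FPKM in Ct and 0.156, 0.187, 0.223 and 0.174 FPKM in CS libraries, from 25 to 50 reads, and the groups overlapped. Epha4 (chr1:77367185-77515088, minus strand), a receptor that binds both classes, had 0.0318, 0.176, 0.0816 and 0.0349 FPKM in Ct and 0.240, 0.205, 0.169 and 0.197 FPKM in CS libraries. These rest on 4, 22, 12 and 4 reads in Ct and 32, 30, 22 and 27 reads in CS libraries. In 3 of 4 CS libraries Epha4 lay above every Ct library.

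The log2 fold change of Epha4 was 0.80 with an interval of 0.10 to 1.51 in the fit with no minimum (adjusted p = 0.906 in limma). At an unadjusted p of 0.05 it was the only one of the 10 members to pass that fit, against 4.1% of the 21019 genes (2.17% higher and 1.93% lower in CS). No gene passed the adjusted p in that fit of limma, where 862 passed the unadjusted one, and in 2.26% of the genes, none of them a member, the groups did not overlap. For Epha4 the limma p was 0.0289 and the exact permutation test gave p = 0.0571, two-sided, where 0.0286 is the smallest value that 4 against 4 libraries allow. The summed retinal pigment epithelium markers were above every Ct library in all 4 CS libraries, and the sum over 5 rod markers in 3 of 4. Taken singly, 4 of these 5 rod markers had all CS libraries above all Ct libraries. The part of these markers in Epha4 was not tested. With each library left out in turn the log2 fold change of Epha4 was 0.67 to 1.03. It no longer passed the unadjusted p with the replicate number as a block, where the log2 fold change stayed at 0.80 and the limma p was 0.0504, or with a pseudocount of 0.01. The size of the fold depends on the pseudocount, at 1.49 with 0.01 and 0.16 with 1.

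Epha7 (chr4:28813131-28967499, plus strand), an EphA receptor, was covered by 0, 0, 3 and 0 reads in Ct and 2, 1, 2 and 0 reads in CS libraries. In the libraries with 0 reads, a count of 0 allows a level of up to 0.0206 to 0.0246 FPKM (3 reads), counting error only. No fold is given for it.

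**Figure D2:**
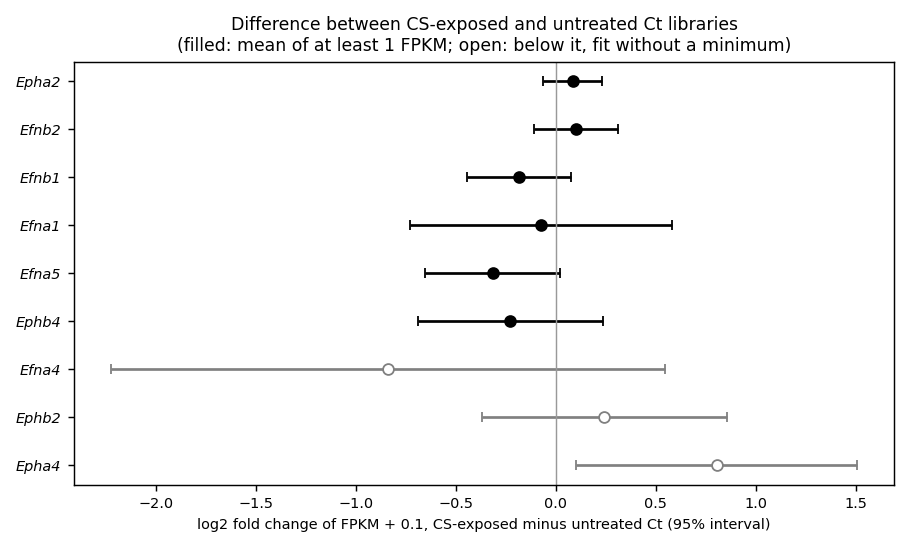
Log2 fold change of CS over Ct with 95% intervals for 9 members (all but Epha7), on the log2(FPKM + 0.1) scale, with open points for members under 1 FPKM, from the fit with no minimum. The intervals include 0 for all drawn members except Epha4, at 0.80.

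Among the ligands, Efnb2 (chr8:8617434-8661242, minus strand) was the highest. It signals backwards into the cell that carries it and had 10.8, 11.2, 10.7 and 10.99 FPKM in Ct and 11.2, 13.9, 12.2 and 9.92 FPKM in CS libraries. The CS libraries were spread more widely, with an SD of 1.69 FPKM against 0.225 FPKM, and contained the highest and the lowest value. On the log2 scale the difference was 0.10 with an interval of -0.11 to 0.31 (limma p = 0.322, exact permutation p = 0.400). Without the second CS library it was 0.017.

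Efnb1, the other B-class ligand above 1 FPKM, is encoded on the X chromosome (chrX:99136130-99148991, plus strand). It had 6.82, 5.53, 6.75 and 7.57 FPKM in Ct and 5.63, 7.005, 5.67 and 5.15 FPKM in CS libraries. Of the CS libraries, 3 lay below the 3 highest Ct libraries, and the groups overlapped. Its log2 fold change came to -0.18 with an interval of -0.44 to 0.08 (limma p = 0.153, exact permutation p = 0.286). It passed an unadjusted limma p of 0.05 without the second Ct library and without the second CS library, at -0.27 in each case.

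Efna5 (chr17:62604184-62881317, minus strand), the A-class ligand tied to cataract in mice that lack it, had 2.23, 1.70, 2.62 and 2.19 FPKM in Ct and 1.73, 1.72, 1.59 and 1.83 FPKM in CS libraries. The CS values lay below every Ct library except the second. The means were 1.72 ± 0.0979 FPKM in CS and 2.19 ± 0.381 FPKM in Ct libraries (SD, n = 4 each). The log2 fold change was -0.32 with an interval of -0.65 to 0.02 (limma p = 0.0640, adjusted p = 0.956, exact permutation p = 0.114), the largest in size among the tested members. It passed an unadjusted limma p of 0.05 when the variance trend was left out, and also without the second Ct library, where the log2 fold change was -0.43.

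Efna1, an A-class ligand of Epha2, had 1.08, 1.86, 3.79 and 1.79 FPKM in Ct and 1.71, 1.46, 2.27 and 1.98 FPKM in CS libraries. The third Ct library was the highest and the first Ct library the lowest of all 8. The log2 fold change was -0.07 with an interval of -0.73 to 0.58 (limma p = 0.813, exact permutation p = 0.857), and it was 0.24 without the third Ct library and 0.03 without the second CS library, so that its sign rests on single libraries.

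Efna4, another A-class ligand, had 0.315, 0.348, 0.619 and 0.207 FPKM in Ct and 0, 0.460, 0.457 and 0.0289 FPKM in CS libraries, from 10, 11, 23 and 6 reads and 0, 17, 15 and 1 reads. A count of 0 in the first CS library allows up to 0.0889 FPKM. The highest value was in a Ct library, the lowest 2 were in CS libraries, and the groups overlapped (log2 fold change -0.84, interval -2.22 to 0.55, limma p = 0.207, exact permutation p = 0.343). The size of this fold depends on the pseudocount, at -1.88 with 0.01 and -0.17 with 1. The annotation of Efna4 shares 168 exonic bases with the antisense gene 4731419I09Rik, and reads of the 2 genes cannot be told apart without strand.

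Ordered by mean FPKM over all 8 libraries, a level per length of gene, the members were Epha2 (35.7 ± 2.45), Efnb2 (11.4 ± 1.21), Efnb1 (6.26 ± 0.872), Efna1 (1.99 ± 0.809), Efna5 (1.95 ± 0.359), Ephb4 (1.68 ± 0.355), Efna4, Ephb2 (0.164 ± 0.0404), Epha4 (0.142 ± 0.0809) and Epha7 (SD, n = 8). Epha2 exceeded Efnb2 by 3.14-fold and Efnb2 exceeded Efnb1 by 1.81-fold, with no overlap over the libraries. The ranges of Efna1, Efna5 and Ephb4 overlapped, as did those of Efna4, Ephb2 and Epha4, and neighbours within these 2 sets did not differ beyond their spread.

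**Figure D3:**
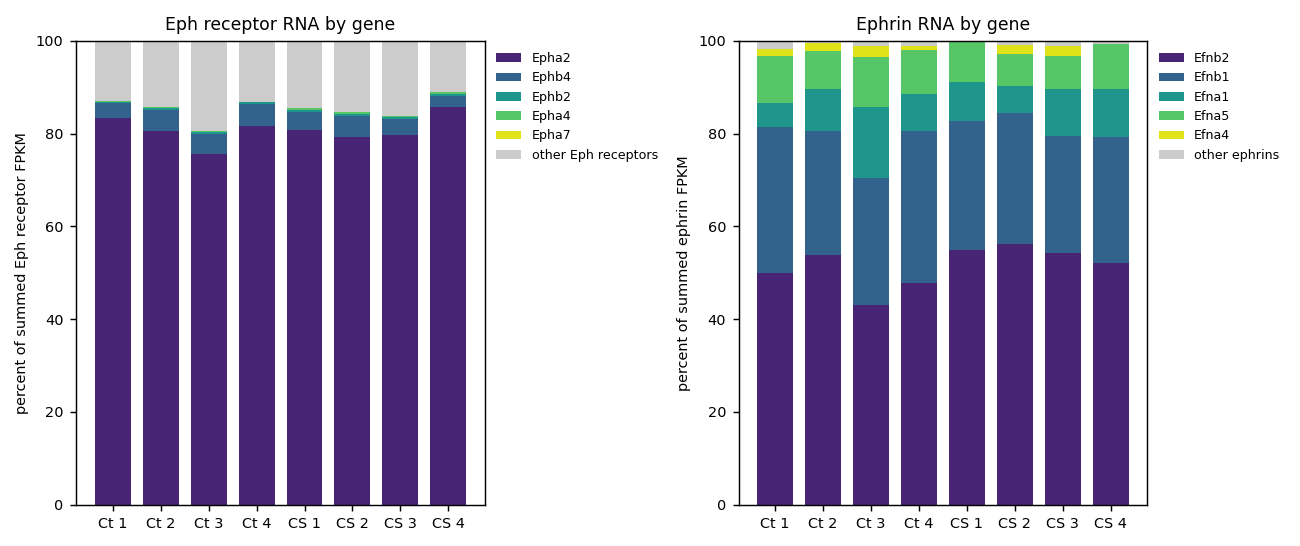
Share of each member in the summed FPKM of all 14 Eph receptors (left) or all 8 ephrins (right), as stacked percentages per library, with other family genes in grey. Epha2 makes up 75.7% to 85.7% of the receptor sum in every library, and Efnb2 makes up 43.1% to 56.1% of the ephrin sum.

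Shares of a sum within a library do not depend on how the library was scaled. Epha2 held 83.3%, 80.6%, 75.7% and 81.7% of the receptor sum in Ct and 80.8%, 79.3%, 79.8% and 85.7% in CS libraries. These groups overlapped, and the difference was 1.10 percentage points (two-sided exact permutation p = 0.600). Efnb2 held 50.0%, 53.9%, 43.1% and 47.8% of the ephrin sum in Ct and 55.0%, 56.1%, 54.2% and 52.1% in CS libraries, above every Ct library in 3 of 4. The difference was 5.66 percentage points (two-sided exact permutation p = 0.0571, 0.429 adjusted over the 15 family measures). With a library left out, the difference was lowest without the third Ct library, at 3.80 points (exact permutation p = 0.114), and highest without the second, at 7.40 points (exact permutation p = 0.0286).

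A-class ephrins together held 17.6%, 18.9%, 29.1% and 18.5% of the ephrin sum in Ct and 16.9%, 14.8%, 19.3% and 20.2% in CS libraries. The third Ct library stood apart from the other Ct libraries, and the difference between groups did not pass the test (exact permutation p = 0.400). The receptor sum was 40.6 to 47.8 FPKM and the ephrin sum 19.03 to 24.8 FPKM. The ratio of the sums was 2.10 ± 0.188 in CS and 1.93 ± 0.273 in Ct libraries (SD, n = 4 each, exact permutation p = 0.343).

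FC were peeled from the epithelium by hand, so the members were set beside a score of 7 epithelium markers, the mean of their log2(FPKM + 0.1). The markers were Foxe3, Cdh1, Pdgfra, Pax6, Gja1, Mki67 and Top2a, with equal weight. Mki67 and Top2a reached at most 0.246 and 0.255 FPKM, from 6 to 49 and 7 to 31 reads, so counting error enters the score. The score was 1.16, 1.49, 2.11 and 1.17 in Ct and 1.02, 1.41, 1.63 and 1.10 in CS libraries, and its groups overlapped (exact permutation p = 0.514). Foxe3, a transcription factor of the lens epithelium, reached 64.0 FPKM in the third Ct library and 17.5 to 34.8 FPKM elsewhere. Over the 8 libraries, Efna4 followed the score with a Pearson r of 0.78 (exact permutation p = 0.0237, adjusted over 10 members 0.161) and a Spearman correlation of 0.90 (p = 0.00456, adjusted 0.0456). Within groups its r was 0.75 (exact permutation p = 0.00694, adjusted 0.0694), and without the 2 libraries farthest from the median score it was 0.81 (p = 0.0750). It rests on at most 23 reads per library.

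Efna1 had a Pearson r of 0.77 with the score (exact permutation p = 0.0321, adjusted 0.161) and a Spearman correlation of 0.60 (p = 0.132, adjusted 0.661). Its r within groups was 0.79 (exact permutation p = 0.0590, adjusted 0.243). Without the 2 farthest libraries its r was 0.0082, so that the relation rests on those libraries. The r of the other 8 members lay between -0.32 and 0.61, and none had a p under 0.05. That the epithelium has a part in the member values was not tested.

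**Figure D4:**
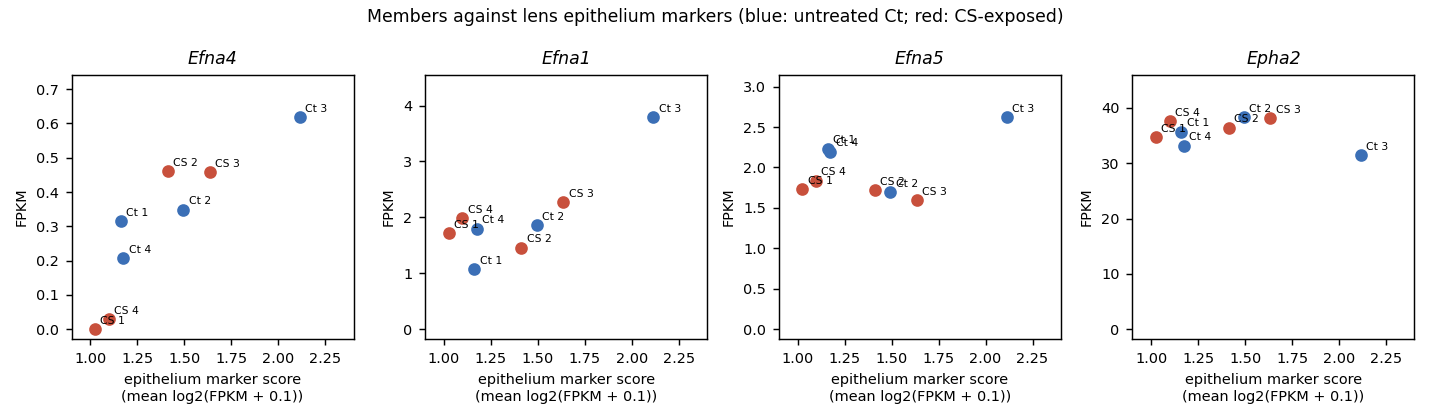
FPKM of Efna4, Efna1, Efna5 and Epha2 against the lens epithelium marker score (mean log2(FPKM + 0.1) of 7 markers), 1 point per library (blue, untreated Ct; red, CS-exposed). Efna4, Efna1 and Efna5 are highest in the third Ct library, which also has the highest score, 2.11.

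3 A-class ligand genes lie side by side on chromosome 3. Efna1 (GRCm38, chr3:89271733-89281142) and Efna4 (chr3:89333390-89338028), both on the minus strand, had their highest values in the third Ct library. Efna3 lies between them (chr3:89313899-89322965) and was covered by 0, 1, 7 and 3 reads in Ct and by 0 reads in all 4 CS libraries. By Pearson r over the 8 libraries, the tested genes most like Epha2 were P4ha1 (0.97), Alg12 (0.95), Acvr2a (0.95), Atp5g2 (0.93) and Fblim1 (0.93). Those most like Efna5 were Clstn2 (0.94), Dync1i1 (0.93), Bola2 (0.92), Kdm1b (0.92) and Knop1 (0.92). The libraries share their depth and dissection, and these are descriptions without a test.

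Of the 12 other Eph and ephrin genes, 3 were tested and none passed an unadjusted p of 0.05. Epha1, an EphA receptor of epithelia, was the second highest receptor of the family, at 3.46 ± 0.667 FPKM in CS and 3.34 ± 0.376 FPKM in Ct libraries (SD, n = 4 each). Ephb3 and Ephb6, 2 further EphB receptors, had log2 fold changes of -0.33 and -0.21 (exact permutation p = 0.286 and p = 0.686).

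Other genes of the pathway were taken as 3 lists. Of 25 receptor-proximal and downstream genes, 22 were tested, none passed an unadjusted p of 0.05, and 13 differences were above 0 and 9 below (median log2 fold change 0.03). The GTPase gene Rac1 was the highest of them, at 206 ± 2.59 FPKM in CS and 196 ± 10.7 FPKM in Ct libraries (SD, n = 4 each, limma p = 0.116, exact permutation p = 0.0571). Nck1, an adaptor that links receptors to actin, was 2.10, 1.78, 1.73 and 1.63 FPKM in Ct and 1.47, 1.62, 1.37 and 1.49 FPKM in CS libraries. All 4 CS values of Nck1 were below all Ct values, without passing the fit (log2 fold change -0.26, limma p = 0.104, adjusted p = 0.956, exact permutation p = 0.0286, the smallest possible), where 3.08% of all tested genes did not overlap, and it is named for this pattern after its values were seen.

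Of 17 turnover and scaffold genes, 14 were tested and 1 passed the unadjusted p, against 4.83% of all tested genes. This was Adam10, the metalloprotease that cleaves ephrins from the surface, at 26.1, 26.2, 23.7 and 24.3 FPKM in Ct and 28.2, 27.1, 31.8 and 26.1 FPKM in CS libraries, above every Ct library in 3 of 4. Its log2 fold change was 0.17 ± 0.07 (SE; limma p = 0.0354, adjusted p = 0.956), and the exact permutation test gave p = 0.0857. Tjp1, a scaffold of cell junctions, was the highest in the list, with 29.4 FPKM in Ct and 30.3 FPKM in CS libraries on average. All 7 adhesion partners were tested and none passed an unadjusted p of 0.05, with 1 difference above 0 and 6 below (median -0.08). Ctnnb1, a catenin that binds cadherins, was the highest of these, at 95.5 FPKM in Ct and 97.9 FPKM in CS libraries on average.

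**Figure D5:**
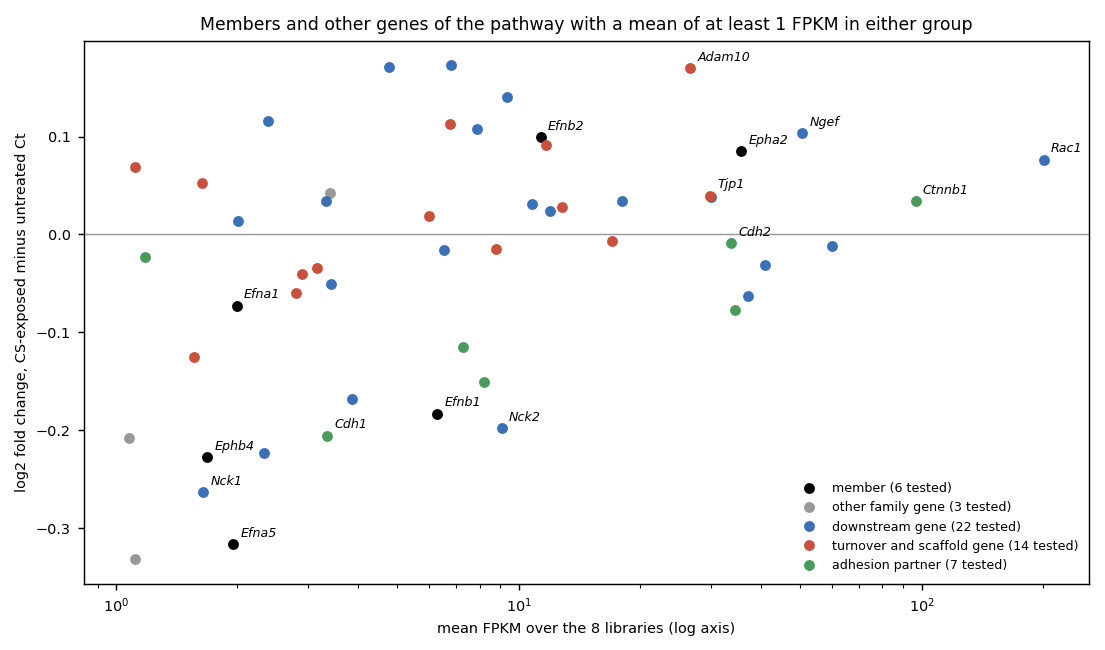
Log2 fold change of CS over Ct against mean FPKM (log axis) for tested members, other family genes and the genes of the 3 lists, each point 1 gene. The points lie between -0.33 and 0.17, and Nck1, at -0.26, is the gene of the lists whose CS libraries all lie below its Ct libraries.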

How the data were processed

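RNA of lens FC from 4 CS-exposed and 4 untreated Ct pools was sequenced by the authors as paired reads of 150 bases (NEBNext Ultra kit, strandedness not given in the sources used here). Per the submitters' processing notes, STAR 2.5 aligned the reads to GRCm38 and HTSeq 0.6.1 counted them on genes, and the authors deposited FPKM per library, which are not counts. The deposited log2 fold changes and p-values of the authors' own comparison, made with DESeq2, were not used. The annotation release is not given in the sources used here.

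Groups came from the sample titles. Genes whose mean reached 1 FPKM in the Ct or the CS group entered the fit of log2(FPKM + 0.1) by limma 3.58.1 in R 4.3.3 (eBayes with a trend, two-sided, Benjamini-Hochberg adjustment over all genes tested). Such fold changes understate those of low genes. Single values were compared over all 70 assignments of libraries. Whole reads were recovered from the steps of the FPKM for 99.8% of tested genes, with a tolerance of 0.06. The estimated 18100000 to 23300000 fragments per library rest on gene lengths of GENCODE M21, the source of the coordinates, on which 667 of 9079 genes gave the same depth within 0.1%, and are approximate. Python 3.11.15, numpy 2.4.6, pandas 2.3.3, scipy 1.17.1 and matplotlib 3.10.9 were used. The fit was tested on simulated data. P-values measure the spread between pools.

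The members, gene lists and tests were chosen with earlier results of these data known. Named are all members, genes of the other family and pathway lists with an unadjusted p under 0.05 or the highest FPKM of their list, and the 5 genes most like Epha2 and Efna5. Chosen after their values were seen were Nck1, Ephb3, Ephb6, Efna3, Epha5, Ephb1, Foxe3, Best1, Gfap and Glul. Alternatives were other pseudocounts, filters, scalings and eBayes settings, limma-voom on recovered reads, the replicate block, and leaving out each library. One gene of the marker lists is not reported here, and the rod sum was taken without it, a choice made after seeing the data.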

Additional observations from a re-analysis of the deposited data

Results flagged for a closer look

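In 66 groups of 4 libraries, the highest or lowest value was set against the others, and 3 stood apart, where chance gives about 1 in 20 groups, or 3.3. A-class ephrins held 29.1% of the ephrin sum in the third Ct library, against 17.6% to 18.9% in the other Ct libraries. Epha7 was at 0.0191 FPKM in the same library, from 3 reads, and at 0 in the other 3 Ct libraries. Its share of the receptor sum was 0.0460% there and 0 in the others. The third Ct library also had the highest epithelium marker score, and the part of this in the values was not tested.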

How the results depend on the processing

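The count of genes past the adjusted p, 1, was 0 with no minimum or without the trend, 5 with the replicate block, 2 with limma-voom, and 0 to 1 with a library left out. The 473 genes past the unadjusted p (269 higher, 204 lower) became 862 with no minimum (457 and 405) and 226 at a minimum of 5 FPKM (148 and 78), and 417 to 521 with a library left out (220 to 311 higher, 157 to 286 lower). Of the 6 tested members, 0 passed the unadjusted p, 1 (Efna5) without the trend and 0 to 2 with a library left out (Efna5 and Efnb1 without the second Ct library, Efnb1 without the second CS library, with log2 fold changes of -0.27 for Efnb1 in both). With no minimum, 1 of all 10 members passed it, Epha4, which is not among the 6. None of the 6 passed the adjusted p under any alternative, and the 4 members below the minimum were adjusted only in the fit with no minimum. The log2 fold change of Efna1 ranged from -0.33 to 0.24 with a library left out, that of Epha2 from 0.040 to 0.13, of Efnb2 from 0.017 to 0.18, of Ephb4 from -0.36 to -0.048 and of Efna4 from -1.22 to -0.39. Differences of shares ranged from -0.44 to 2.08 points for Epha2, 3.80 to 7.40 for Efnb2, -3.49 to -1.42 for Efnb1 and -2.14 to -1.24 for Efna5, and the ratio of sums differed by 0.087 to 0.29.

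Pearson r with the epithelium score without the 2 farthest libraries was 0.52 for Epha2, 0.14 for Epha4, -0.30 for Epha7, 0.62 for Ephb2, 0.0082 for Efna1, 0.81 for Efna4 and -0.37 for Efna5. Within groups it was 0.24 for Epha4, 0.17 for Ephb2 and 0.79 for Efna1. With a library left out it ranged from -0.48 to 0.63 (Epha2), -0.30 to 0.20 (Epha4), 0.24 to 0.90 (Epha7), -0.24 to 0.76 (Ephb2), 0.37 to 0.84 (Efna1), 0.74 to 0.84 (Efna4), -0.57 to 0.54 (Efna5), -0.068 to 0.37 (Efnb1) and -0.024 to 0.59 (Efnb2).

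Same-numbered libraries had correlations of deviations of 0.012 to 0.161. The numbers were not taken as pairs, since the labels name no shared source and not every pair exceeded 0.1, although 6 of 8 libraries correlated best with their own number, a hint from the data. With the replicate block, 522 genes passed the unadjusted p and Epha4 kept its log2 fold change of 0.80 with a limma p of 0.0504. Depth limits Epha7, Efna4, Epha4 and Ephb2, which rest on at most 50 reads per library.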

Other observations

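Epha5, an EphA receptor outside the member list, was covered by 36, 32, 80 and 11 reads in Ct and 53, 78, 105 and 33 reads in CS libraries, and the groups overlapped. Ephb1 was covered by 12, 12, 17 and 17 reads in Ct and 38, 42, 16 and 13 reads in CS libraries. Both stayed under 1 FPKM in every library.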
